A study of Mus musculus with 8 samples.

Results

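Neuropeptide precursors of sympathetic neurons were measured in primary spheres grown from the superior mesenteric ganglion of mice. The set held 9 genes (Penk, Gal, Sst, Vip, Adcyap1, Npy, Cartpt, Calca and Tac1), chosen by name with earlier results of these data known. On the array 10 probes carried RefSeq accessions of these genes, out of 20660 named genes and 55681 probes. Spheres of 4 mice were grown in medium without retinoic acid (RA-free), and cells of the same 4 mice in medium with it (RA-containing), so that each mouse gave 1 RA-free and 1 RA-containing array. All mice were 3 weeks old, of strain 129+Ter/SvJcl and hemizygous for TH-MYCN (TH-MYCN+/-), and all spheres were collected after 8 days. TH-MYCN places human MYCN under a tyrosine hydroxylase promoter and is used as a mouse model of neuroblastoma. Every group carried the transgene, so no wild-type ganglion enters any comparison.

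Sympathetic neurons release noradrenaline, or in a minority of cells acetylcholine, together with peptides stored in dense-core granules. Each peptide is cut from a longer precursor by convertases, trimmed, often amidated, and then acts on G protein-coupled receptors. In cultured rat sympathetic neurons the choice of peptide is known to depend on the environment: cytokines that signal through gp130 raise VIP and substance P and lower NPY. Retinoic acid is a signal of the developing nervous system that acts through nuclear receptors.

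Levels below are log2 processed intensities minus those at each array's 75th percentile, and a change is RA-free minus RA-containing within an animal. That percentile was 235 to 295 intensity units on RA-free arrays and 228 to 306 on RA-containing arrays, and the share of non-control spots well above background was 48.5% to 55.0% on RA-free and 52.7% to 55.3% on RA-containing arrays. A gene is called changed at a Benjamini-Hochberg adjusted p under 0.05 by limma with the animal as a block, over 13538 tested genes. Of these, 64.3% were called, 36.1% higher and 28.2% lower in RA-free spheres, with a median change of 0.07 over all genes. All 17 noradrenergic markers listed passed the filter on dim probes. As 13538 of 20660 named genes passed it, this does not test the labelled sympathetic origin. Levels of different probes are not comparable with each other. Precision rests on the number of animals and on each gene's spread between them, as moderated by limma.

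The peptide genes went both ways. In RA-free spheres Penk, Gal, Sst, Vip and Adcyap1 were lower and Cartpt and Calca were higher, while Npy did not pass the test and Tac1 was well above background on none of the arrays. Of 8 tested members, 7 were called, against 64.3% of all tested genes. In the same 7 the arrays of the media did not overlap, against 53.3% of all tested genes without overlap (23.8% lower and 29.5% higher). Of the 8, 6 were well above background on all 8 arrays. Penk and Sst passed the filter through the RA-containing arrays alone and therefore had to differ, so the counts over tested members are a description. The plot of levels by animal shows all 9 genes.

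**Figure D1:**
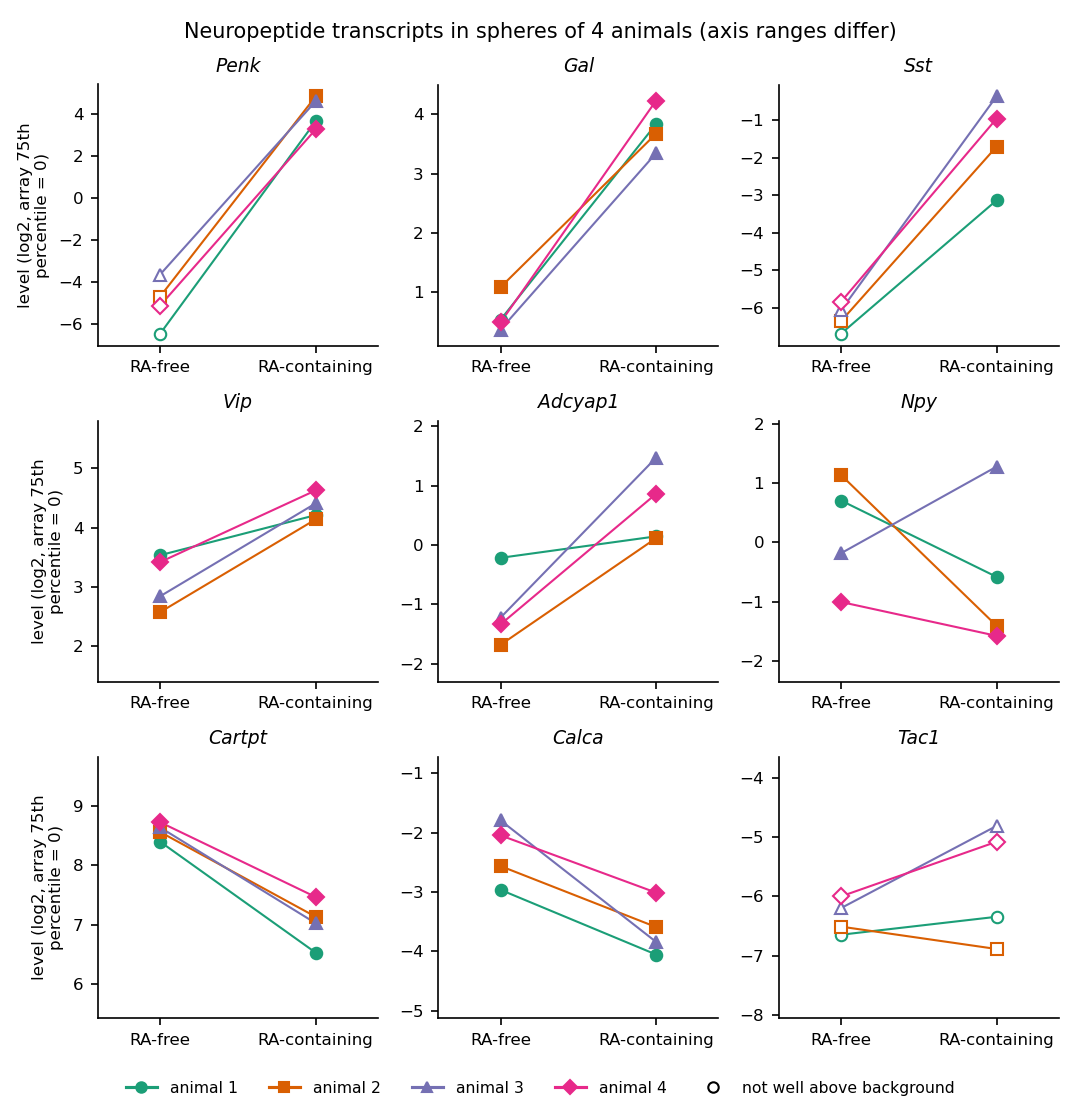
Levels of the 9 neuropeptide transcripts (y axis, log2, with each array's 75th percentile at 0) in RA-free spheres (left in each panel) and RA-containing spheres (right), with a line joining the arrays of each animal. Filled symbols were well above background and open symbols were not. Lines run upward to the right in every animal for Penk, Gal, Sst, Vip and Adcyap1, downward in every animal for Cartpt and Calca, and cross for Npy.

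Penk encodes proenkephalin, the precursor of the opioid peptides Met- and Leu-enkephalin. Its probe (NM_001002927) gave processed intensities of 3.32, 9.37, 20.8 and 6.71 in RA-free spheres of animals 1 to 4, against 3757, 8656, 5506 and 2848 in RA-containing spheres. The levels were −6.47, −4.70, −3.65 and −5.13 in RA-free spheres and 3.64, 4.82, 4.59 and 3.25 in RA-containing spheres. No RA-free array was well above background and every RA-containing array was, with a gap of 6.91 log2 units between the groups. Penk was at least 295-fold lower in RA-free spheres (limma adjusted p = 5.29e-05; lower in 4 of 4 animals). This bound sets the mean over 4 RA-containing arrays against the higher of the probe's own RA-free level and the lowest level well above background on that array. With normexp background correction (offset 50) and quantile normalization, called the normexp setting below, the change was −5.76, smaller than the bound. In whole spheres, fewer cells of a type and less RNA per cell cannot be told apart, for this gene or for those below.

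Gal encodes galanin, a peptide that sympathetic neurons make after injury. Its levels (NM_010253) were 0.54, 1.09, 0.37 and 0.49 in RA-free spheres of animals 1 to 4, against 3.84, 3.67, 3.35 and 4.23 in RA-containing spheres. Galanin signal stayed well above background without RA, at 331 to 518 intensity units, against 2320 to 5616 with RA. The mean was 0.62 ± 0.32 in RA-free and 3.77 ± 0.37 in RA-containing spheres (SD, n = 4 each), a fall of 8.87-fold (change −3.15, SE 0.19, limma adjusted p = 0.000119). The change within an animal lay between −3.74 and −2.59.

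Sst encodes the precursor of somatostatin, an inhibitory peptide whose gene is a classic target of cAMP signalling. Its promoter is shown because it holds the cAMP response element through which that response was first defined, in capitals below. The sequence is RefSeq's on GRCm38.p6, chr16:23890845-23891094, minus strand, and gives the 250 bases before the transcription start.
Sst: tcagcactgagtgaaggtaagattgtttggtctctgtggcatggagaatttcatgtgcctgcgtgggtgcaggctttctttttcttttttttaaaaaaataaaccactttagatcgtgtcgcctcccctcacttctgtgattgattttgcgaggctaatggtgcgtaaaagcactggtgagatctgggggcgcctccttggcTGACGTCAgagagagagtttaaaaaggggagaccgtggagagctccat

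The Sst probe (NM_009215) was printed 10 times on each array, which gives a view of the technical error. Averaged over spots, its levels were −6.68, −6.35, −6.06 and −5.83 in RA-free spheres, against −3.13, −1.70, −0.37 and −0.96 in RA-containing spheres of animals 1 to 4. None of 40 spots was well above background on the RA-free arrays and all 40 were on the RA-containing arrays. The spread between spots of an array was 0.18 to 0.38 (SD, log2) on RA-free arrays and 0.08 to 0.16 on RA-containing arrays, against an SD between animals of 0.37 in RA-free and 1.19 in RA-containing spheres. With RA the SD between animals was thus wider than that between spots, and animal 1 was the lowest. Sst was at least 6.48-fold lower in RA-free spheres (limma adjusted p = 0.000174; lower in 4 of 4 animals), while in the normexp setting the change was −1.36, below that bound in size.

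**Figure D2:**
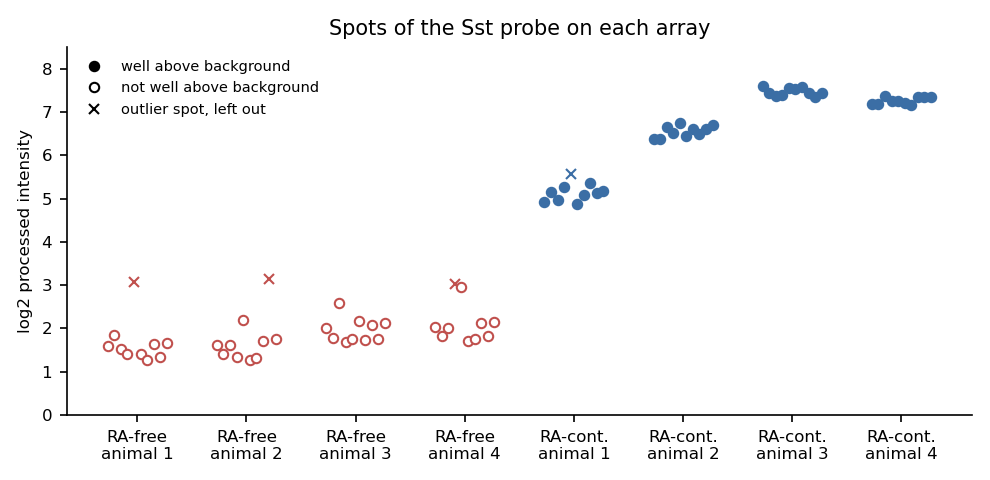
Processed intensity of the 10 spots of the Sst probe (y axis, log2 intensity units) on each RA-free array (left) and each RA-containing array (right). All RA-free spots lie below all RA-containing spots. Among RA-containing arrays, that of animal 1 is the lowest and the spots of animals 3 and 4 overlap.

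Vip and Adcyap1 encode related peptides, vasoactive intestinal peptide and PACAP, which share receptors that raise cAMP. Vip is the peptide of cholinergic sympathetic neurons, for example those that drive sweat glands. Levels of Vip (NM_011702) were 3.53, 2.57, 2.84 and 3.42 in RA-free spheres, against 4.21, 4.14, 4.41 and 4.63 in RA-containing spheres of animals 1 to 4. The groups lay 0.60 apart, and the transcript stayed bright without RA, at 1453 to 3417 intensity units. Vip was 2.38-fold lower (3.09 ± 0.46 in RA-free and 4.35 ± 0.22 in RA-containing spheres, SD, n = 4 each; change −1.25, SE 0.17, limma adjusted p = 0.00137). Animal 1 had the smallest change, −0.68, and animal 3 the largest, −1.57.

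Adcyap1 (NM_009625) had levels of −0.22, −1.68, −1.22 and −1.34 in RA-free spheres, against 0.15, 0.12, 1.47 and 0.86 in RA-containing spheres. The groups were 0.33 apart, and the RA-free array of animal 1 was the one nearest to the RA-containing arrays. The change was −0.36 in animal 1 and −1.80, −2.70 and −2.20 in animals 2 to 4. Adcyap1 was 3.40-fold lower (−1.11 ± 0.63 in RA-free and 0.65 ± 0.65 in RA-containing spheres, SD, n = 4 each; change −1.76, SE 0.37, limma adjusted p = 0.00795). Vip and Adcyap1 carry the first 5 letters of the cAMP response element before their starts, as do Calca and, on the opposite strand, Tac1. These stretches are shown for that reason, with the letters in capitals (CGTCA where they lie on the opposite strand).
Vip (chr10:5639121-5639161, plus strand, GRCm38.p6, RefSeq): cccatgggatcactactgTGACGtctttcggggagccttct
Adcyap1 (chr17:93198908-93198948, plus strand, GRCm38.p6, RefSeq): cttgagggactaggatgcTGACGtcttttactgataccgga
Calca (chr7:114636400-114636440, minus strand, GRCm38.p6, RefSeq): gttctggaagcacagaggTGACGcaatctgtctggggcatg
Tac1 (chr6:7555000-7555040, plus strand, GRCm38.p6, RefSeq): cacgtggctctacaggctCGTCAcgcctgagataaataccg

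Npy encodes neuropeptide Y, the main peptide of noradrenergic sympathetic neurons and a vasoconstrictor. It was the one tested member whose groups overlapped. Levels (NM_023456) were 0.70, 1.13, −0.19 and −1.01 in RA-free spheres, against −0.58, −1.41, 1.27 and −1.58 in RA-containing spheres of animals 1 to 4. The change was 1.29, 2.54 and 0.57 in animals 1, 2 and 4 and −1.46 in animal 3, whose RA-containing array had the highest level of all 8. The mean change was 0.73 (SE 0.61, 95% interval −0.78 to 2.25, limma adjusted p = 0.332; higher in 3 of 4 animals), so the test leaves room for a change of either sign. Without animal 3 the change was 1.47 and passed (limma adjusted p = 0.0340), and without animal 2 it was 0.13 (adjusted p = 0.850). The spread between animals, an SD of 0.95 in RA-free and 1.31 in RA-containing spheres, was wider than for Gal, Vip or Cartpt.

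Cartpt encodes the precursor of cocaine- and amphetamine-regulated transcript peptides, which occur in sympathetic ganglia and the adrenal medulla. Its levels (NM_013732) were 8.40, 8.56, 8.64 and 8.73 in RA-free spheres, against 6.53, 7.13, 7.03 and 7.47 in RA-containing spheres of animals 1 to 4. In intensity units these were 92195 to 104285 without RA and 27851 to 52876 with RA, and no spot was saturated. The RA-free arrays lay close together and all above the RA-containing arrays, with a gap of 0.93. Cartpt was 2.92-fold higher in RA-free spheres (8.58 ± 0.14 in RA-free and 7.04 ± 0.39 in RA-containing spheres, SD, n = 4 each; change 1.54, SE 0.11, limma adjusted p = 0.000208). The change lay between 1.26 and 1.87 in single animals. Its promoter is shown because, like that of Sst, it holds the whole cAMP response element (capitals), and the transcripts of these genes moved in opposite directions. The 250 bases before the start lie at chr13:99900684-99900933, minus strand, on GRCm38.p6 (RefSeq).
Cartpt: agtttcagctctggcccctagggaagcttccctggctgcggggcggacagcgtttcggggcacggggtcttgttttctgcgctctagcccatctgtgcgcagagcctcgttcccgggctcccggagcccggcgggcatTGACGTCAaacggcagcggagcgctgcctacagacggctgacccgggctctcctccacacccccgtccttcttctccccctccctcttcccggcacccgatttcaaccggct

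Motifs were searched on both strands of 300-base windows, 250 bases before to 50 after each start. All members but Penk, 8 in number, had a window. The whole cAMP response element TGACGTCA was in the windows of Sst, 48 bases before the start, and Cartpt, 112 bases before it, and in 1.79% of 32851 promoters of all genes. Its first 5 letters, TGACG, which also lie within the whole element, were in the windows of 7 of 8 members, against 20.8% of all promoters. The Npy window did not hold these letters, and in Gal they began at base 20, counting the start as base 1. Neither the AP-1 element TGANTCA (7.81% of all promoters) nor a direct repeat of NGNTCA, which covers the core letters of retinoic acid receptor sites, with 5 bases (0.861%) or 2 bases (1.11%) between the copies was found in the windows of these 8. A match describes letters only, and whether a factor binds was not tested.

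Calca gives calcitonin or the vasodilator peptide CGRP by alternative splicing, and has 2 probes for different RefSeq transcripts. The probe for NM_001033954 had levels of −2.96, −2.56, −1.79 and −2.05 in RA-free spheres, against −4.06, −3.59, −3.84 and −3.01 in RA-containing spheres of animals 1 to 4. It was dim, at 37.8 to 75.4 intensity units without RA and 15.9 to 37.1 with RA, but well above background on all 8 arrays. The groups were separated by only 0.05. This transcript was 2.43-fold higher in RA-free spheres (−2.34 ± 0.52 in RA-free and −3.63 ± 0.45 in RA-containing spheres, SD, n = 4 each; change 1.28, SE 0.20, limma adjusted p = 0.00241), and its change was 0.47 in the normexp setting, where it was still called. The probe for NM_007587 was well above background on none of the arrays, with levels of −6.85 to −6.05 in RA-free and −6.90 to −5.33 in RA-containing spheres, and was not tested.

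Tac1, the precursor of substance P and neurokinin A, was well above background on none of the arrays. Levels of its probe (NM_009311) were −6.65, −6.51, −6.20 and −6.00 in RA-free spheres and −6.34, −6.89, −4.81 and −5.08 in RA-containing spheres. The highest values belonged to the RA-containing arrays of animals 3 and 4, at 8.12 and 8.84 intensity units. With no filter on dim probes the change was −0.56 (SE 0.31, limma adjusted p = 0.188).

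The plot of changes by animal sets the tested members side by side. Gal changed by more than 2 log2 units in every animal, and Vip, Adcyap1, Cartpt and Calca by less on average. The points of Penk and Sst rest on RA-free signal that was not well above background, so their bounds, −8.21 and −2.70, are drawn beside them.

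**Figure D3:**
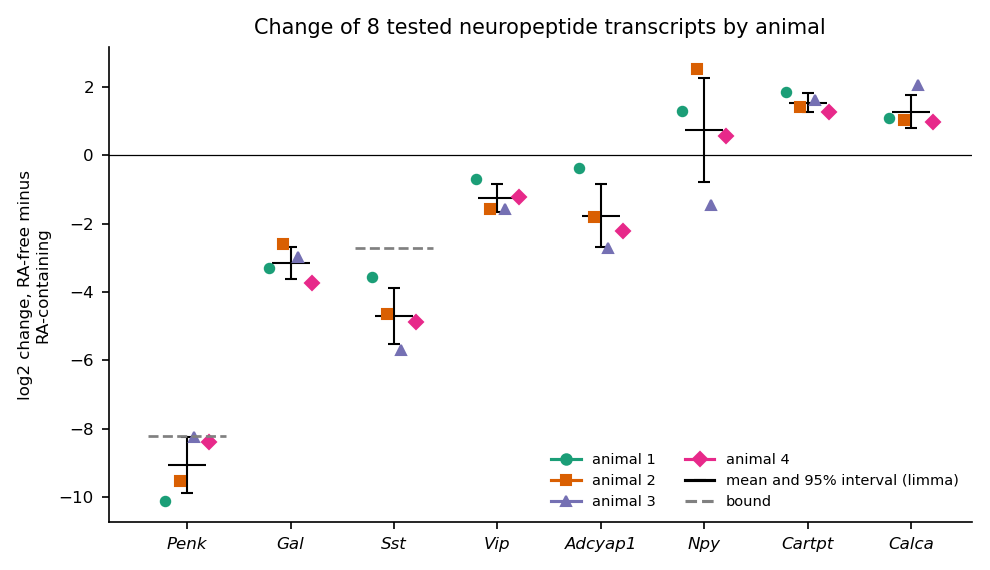
Change of 8 neuropeptide transcripts (y axis, log2, RA-free minus RA-containing) in each of 4 animals (symbols), with the mean and its 95% interval from limma and, for Penk and Sst, the bound that signal over background allows (dashed). Only Npy has animals on both sides of 0, and its interval of −0.78 to 2.25 is the widest.

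For each tested member the named genes most like it were taken as those with the smallest root mean square difference over the 8 arrays, after each gene was centred on its own mean. For Penk these were Hoxb6 (0.59 log2 units), Nckap1l (0.76) and Ramp1 (1.03), all 3 well above background on none of the RA-free arrays by the probe used. For Sst they were Hoxb8 (0.39), Ttr (0.48) and Slc35f4 (0.63), also well above background on none of the RA-free arrays. For Gal they were Txnip (0.20), Tgm5 (0.28) and St3gal1 (0.28), with Tgm5 well above background on 1 RA-free array. For Vip they were G6pc (0.15), Mgll (0.17) and Zfp652os (0.18). Unlike Vip, G6pc was well above background on none of the RA-free arrays. Adcyap1 was most like Islr (0.28), Ass1 (0.31) and Pdk2 (0.31), with Islr well above background on 1 RA-free array. Of the genes higher without RA, Cartpt was most like Kif24 (0.12), Tinf2 (0.13) and Atad5 (0.13), and Calca most like Rpp30 (0.17), Hat1 (0.18) and 2700099C18Rik (0.18). For Npy the nearest were Guca2a (0.55), Gm8096 (0.62) and Oas1d (0.69), less near than for Gal, Vip or Cartpt relative to its SD of 1.13 over the arrays. Guca2a was well above background on 3 RA-free arrays and 1 RA-containing array. The centring keeps the step between media, so genes near a called member are largely those with a change of similar size. Beside Cartpt (change 1.54), Kif24, Tinf2 and Atad5 had changes of 1.56, 1.44 and 1.62. Shared regulation was not tested.

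Enzymes that process precursors were measured next, from a list of 19 genes of which 16 were tested. In RA-free spheres 5 were called higher and 6 lower, with a median change of −0.09 beside 0.07 over all genes. Over all tested genes 36.1% were called higher and 28.2% lower. Counts in this list and the later ones are to be read beside these shares. Listed genes that passed the filter through 1 medium alone had to differ, as Penk and Sst did. Pcsk2, the granule convertase that releases enkephalins and somatostatin, was 5.19-fold lower (−0.47 ± 0.35 in RA-free and 1.91 ± 0.15 in RA-containing spheres, SD, n = 4 each; change −2.37 and −3.86 by another probe, limma adjusted p = 0.000181). Pcsk1n, an inhibitor of the related convertase PCSK1, was 2.56-fold lower, and Ctsl, a cathepsin that also cuts proenkephalin, 2.16-fold lower. Pcsk6, a convertase that works at the cell surface and matrix, was 7.58-fold higher (1.83 ± 0.24 in RA-free and −1.09 ± 0.50 in RA-containing spheres; change 2.92, or 2.33 in the normexp setting, SE 0.20, limma adjusted p = 0.000163). Pcsk1 itself was well above background on none of the arrays. Chosen after their values were seen, Scg5, the chaperone of PCSK2, had a change of −0.84, Cpe, which trims the cut peptides, −0.79, and Pam, which amidates peptides such as NPY, VIP and CGRP, 0.92, each with the groups apart.

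Cargo and release factors of dense-core granules were mostly lower or not called. Of 21 listed genes 19 were tested, and 10 were called lower and 2 higher, beside 28.2% and 36.1% of all tested genes. The median change was −0.34, and under spike-in scaling 6 were called lower. Syt4, a granule synaptotagmin, was 9.03-fold lower (0.24 ± 0.19 in RA-free and 3.41 ± 0.14 in RA-containing spheres; change −3.17, SE 0.13, limma adjusted p = 5.51e-05). Ptprn, a membrane protein of granules, was 4.68-fold lower and Cadps, which primes granules for release, 3.24-fold lower. Syt7, a calcium sensor, was 4.52-fold lower by its brightest probe, while another probe had a change of −0.17 and the normexp setting gave −1.36. The genes called higher were Sytl4 and Rab27a, partners in granule docking, with changes of 1.52 and 1.14, named here after their values were seen.

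**Figure D4:**
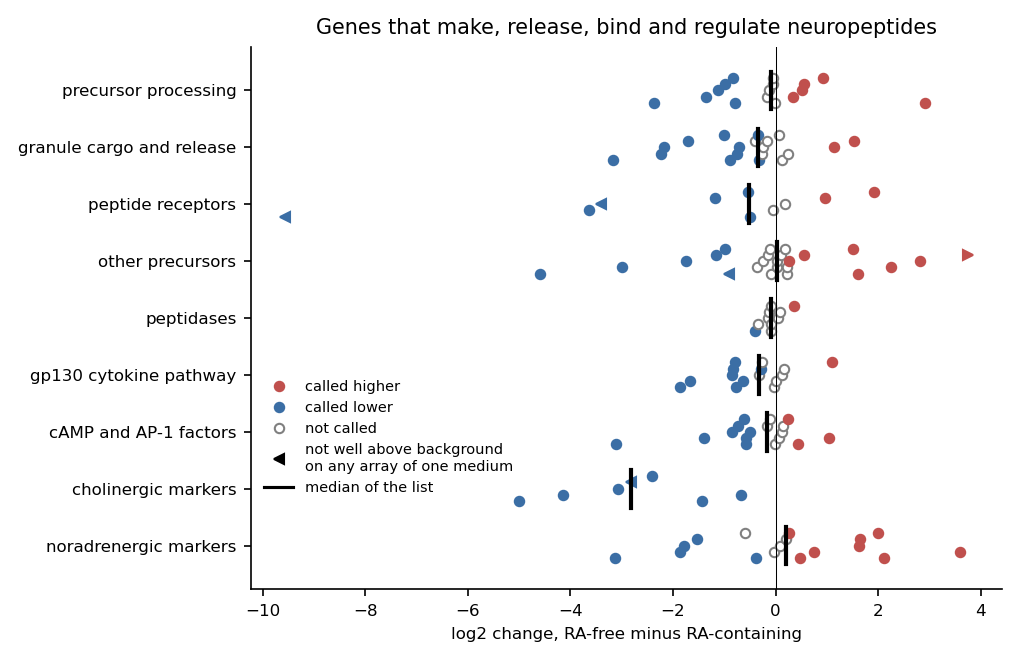
Change of each tested gene (x axis, log2, RA-free minus RA-containing) in lists of genes that make, release, bind or regulate neuropeptides and in 2 lists of neuron markers. Points are genes (red higher, blue lower, open not called), and triangles are genes not well above background on any array of one medium. Black bars are medians, which run from −2.82 for the list of cholinergic markers to 0.21 for noradrenergic markers. The −2.82 is the change of Hmx1, which is listed but is not a marker of cholinergic neurons.

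Receptors for the members' peptides were sparse: of 25 listed, 10 passed the filter on dim probes and 11 were well above background on none of the arrays, among them the opioid receptors Oprd1 and Oprk1, Galr1 and Vipr2. Of the 10, 6 were called lower and 2 higher, beside 28.2% and 36.1% of all tested genes, with a median change of −0.52. Over the 13 alternatives 4 to 7 were called lower. Npy1r and the Ramp1 probe used passed the filter through the RA-containing arrays alone and therefore had to be lower. Npy1r, a receptor for NPY, was well above background on none of the RA-free arrays and was at least 3.70-fold lower (limma adjusted p = 0.000442), with a change of −0.80 in the normexp setting. Sstr3, a somatostatin receptor, reached well above background on just 1 of the 4 RA-free arrays and had a change of −3.65 (limma adjusted p = 0.000156), or −1.20 in the normexp setting. Ramp1, which joins CALCRL to form the CGRP receptor, was at least 270-fold lower by its brightest probe, but 2 other probes had changes of −7.03 and −1.64. Signal well above background without RA was present at a probe other than the brightest, so the bound holds for the brightest probe and not for the gene. In the normexp setting the change of Ramp1 was −5.83, smaller than the bound. Calcrl itself was well above background on none of the arrays.

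Adcyap1r1, the receptor selective for PACAP, was 3.78-fold higher without RA, while the transcript of its ligand was lower there. Its mean level was 1.98 ± 0.33 in RA-free and 0.06 ± 0.45 in RA-containing spheres (SD, n = 4 each; change 1.92, SE 0.09, limma adjusted p = 7.56e-05). Among receptors looked at after their values were seen, Npy2r had a change of −1.18 (limma adjusted p = 0.0157, lower in 3 of 4 animals), Oprm1 one of −0.55 and Sstr1 one of 0.97.

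Other neuropeptide and peptide hormone precursors also went both ways. Of 45 listed, 24 were tested, and 7 were called higher and 6 lower, beside 36.1% and 28.2% of all tested genes. The median change was 0.03, and 14 of those listed were well above background on none of the arrays. With signal well above background required on all arrays, 3 were called higher. Grp, the precursor of gastrin-releasing peptide, was 24.1-fold lower (−1.51 ± 0.33 in RA-free and 3.08 ± 0.31 in RA-containing spheres, SD, n = 4 each; change −4.59, or −3.81 in the normexp setting, SE 0.23, limma adjusted p = 8.81e-05). Pnoc, the nociceptin precursor and a relative of Penk in the opioid family, was well above background on none of the RA-containing arrays and was at least 4.85-fold higher in RA-free spheres (limma adjusted p = 0.000730), with a change of 0.78 in the normexp setting. Pnoc passed the filter through the RA-free arrays alone, and Penk through the RA-containing arrays alone. Their opposite directions were thus set by the filter and are a description. Nms, the neuromedin S precursor, reached well above background on just 1 of the 4 RA-free arrays and had a change of −3.00, or −0.67 in the normexp setting. Ghrh was well above background on 2 of 4 RA-containing arrays and had a change of 2.83, or 1.20 in that setting. Without animal 1 these changes were −3.64 for Nms and 2.22 for Ghrh.

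Few peptidases that inactivate neuropeptides were called, beside 64.3% of all tested genes. Of 10 tested genes of 14 listed, Ide was called higher (0.35) and Npepps lower (−0.40). Both calls were lost under spike-in scaling, and each under 2 further alternatives. Mme, the enkephalin-degrading neprilysin, was well above background on none of the arrays.

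Of the pathways known to set peptide choice, genes of gp130 cytokine signalling were measured as a list of 19. Of 15 tested, 8 were called lower and 1 higher, beside 28.2% and 36.1% of all tested genes. The median change was −0.32, and 4 were lower under spike-in scaling. Socs3, the feedback inhibitor of this pathway, was 3.64-fold lower (−0.31 ± 0.07 in RA-free and 1.55 ± 0.22 in RA-containing spheres; limma adjusted p = 0.000125). Lifr, the receptor chain for LIF and CNTF, was 3.17-fold lower, with changes of −1.36 and −1.22 by other probes, and the kinase Jak1 was 1.79-fold lower. Cntf, a cytokine made by Schwann cells, was 2.14-fold higher.

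Factors of the cAMP and AP-1 pathways included 3 genes called higher and 8 lower among 17 tested of 21 listed. These counts stand beside 36.1% higher and 28.2% lower over all tested genes, and the median change of the list was −0.17. Under spike-in scaling 1 was called higher and 3 lower. Fos, an AP-1 subunit and a gene of neuronal activity, was 8.67-fold lower (−2.94 ± 0.08 in RA-free and 0.18 ± 0.13 in RA-containing spheres; change −3.12, or −1.85 in the normexp setting, limma adjusted p = 3.48e-05). Atf3, a factor of axon injury, was 2.64-fold lower and Crem 1.80-fold lower, while Atf1, a relative of CREB, was 2.07-fold higher.

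Markers of transmitter identity were set beside the peptides. Over all tested genes 28.2% were called lower and 36.1% higher. Of 9 genes listed as cholinergic markers 7 were tested, and all 7 were called lower, with a median change of −2.82. That median was the change of Hmx1, a listed gene that is not a marker of cholinergic neurons. The count of 7 and the median therefore describe the list as drawn up, with Hmx1 in it. Hmx1 had no signal well above background without RA. With Hmx1 at its bound of at least 3.07-fold the list median was −2.41. In the normexp setting the change of Hmx1 was −0.56. Slc18a3, which loads acetylcholine into vesicles, was 31.8-fold lower (0.53 ± 0.99 in RA-free and 5.52 ± 0.22 in RA-containing spheres), Ache 17.6-fold lower, or −2.73 in log2 in the normexp setting, and Chat, which makes acetylcholine, 8.36-fold lower. Of 17 noradrenergic markers 8 were called higher and 5 lower, with a median of 0.21. Th, the first enzyme of noradrenaline synthesis, was 12.0-fold higher and the transporter Slc18a1 8.72-fold lower, while Gata2 and Isl1, transcription factors of these cells, were 4.33-fold (1.505 in log2 in the normexp setting) and 4.01-fold higher.

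Markers of other cells that make these peptides, or that a ganglion could hold, were measured over the same arrays. Their counts stand beside 36.1% called higher and 28.2% called lower over all tested genes. Of 10 sensory neuron markers on the array, 5 were well above background on none of the arrays, among them Trpv1 and Prdm12, and 3 of 4 tested were called lower (Avil −1.76, Scn11a −1.70 and P2rx3 −0.30, with −0.34 and −0.37 for Avil and Scn11a in the normexp setting), with mean levels of −3.71 to −3.34 on RA-free and −2.74 to −2.50 on RA-containing arrays. Of 4 tested chromaffin cell genes, Slc18a1, Chga and Chgb were lower and Pnmt, which makes adrenaline, had a change of 0.12 that did not pass. Slc18a1 is also in the noradrenergic list, and Chga and Chgb are in the granule list, so their calls are counted there too. The call of Chgb was lost under 6 of 13 alternatives, among them the fit without the replicate block, and that of P2rx3 under 6 of 13. Means of the 4 chromaffin cell genes ran from 2.22 to 2.44 on RA-free and 3.26 to 3.65 on RA-containing arrays. Of 13 tested glial markers 2 were higher and 5 lower, with means of −0.83 to −0.63 on RA-free and −0.60 to −0.40 on RA-containing arrays. The largest changes were those of Prx (−1.34), Pou3f1 (1.28), Fabp7 (−0.99) and Mag (−0.98), with 0.58 for Pou3f1 and −0.35 for Mag in the normexp setting. Of 7 tested fibroblast markers 2 were higher and 4 lower, with means of −1.81 to −1.13 on RA-free and −1.24 to −0.64 on RA-containing arrays. Fap had a change of −1.74 (−0.71 in the normexp setting), Fbln1 of 1.25 and Postn of −1.11, and Dcn was at least 1.60-fold lower (−0.32 in the normexp setting). Immune markers gave 3 lower of 5, with means of −1.73 to −1.39 on RA-free and −0.79 to −0.13 on RA-containing arrays. Aif1 and Adgre1 were at least 1.43-fold and 1.39-fold lower (−0.41 and −0.31 in the normexp setting), and Itgam had a change of −0.51, a call lost under spike-in scaling. Endothelial markers gave 1 lower of 4 (Pecam1, a call lost under 8 of 12 alternatives), with means of −1.17 to −0.84 on RA-free and −1.21 to −0.83 on RA-containing arrays. Adrenocortical markers gave 1 higher of 3 (Star), with means of −2.51 to −2.26 on RA-free and −2.98 to −2.56 on RA-containing arrays. Defining markers well above background on none of the arrays included Erbb3 of glia, Lum and Pdgfra of fibroblasts, Ptprc and C1qa of immune cells, Cdh5 and Tek of endothelium and Cyp11a1 of adrenal cortex. With signal well above background required on all arrays, 1 sensory and 1 immune marker were called lower. The part of these cells in the peptide changes was not tested.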

How the data were processed

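Per the file headers, the authors scanned 8 one-colour Cy3 arrays of design 028005 on 1 slide and extracted them with Agilent Feature Extraction 11.5.1.1 (annotation build mm9). The software subtracted background from the deposited processed intensity and removed spatial trends, array by array. The authors' deposited log2 table matched these intensities, each probe centred on its mean (lowest correlation 0.9999); its column medians were −0.07, 0.01, 0.17 and 0.20 for RA-free and −0.23, −0.22, 0.02 and −0.01 for RA-containing arrays 1 to 4, and its exact scaling stays unknown. Other deposited values used were flags, such as well above background. Per the labels, 40 or 200 ng of RNA was labelled; whether this bears on the results was not tested.

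Outlier spots were left out (64 probes lost), log2 intensities were set against the array's 75th percentile and spots were averaged. RefSeq accessions gave 1 symbol to 27235 probes (table of GRCm38.p6) and none to 28446. Tested genes were well above background on at least 4 arrays, the brightest probe standing for each, and limma 3.58.1 (R 4.3.3) fitted the medium with the animal as block, two-sided, which was checked on simulated data. The pairing comes from the series' description; deviations of same-numbered arrays correlated at 0.52, 0.30, 0.19 and 0.33. Where nothing was well above background in one medium a bound replaces the fold.

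The members and lists were chosen with earlier results of these data known. Named were all members, up to 4 called genes of each list with the largest change and 1 direction in all 4 animals, and the 3 genes most like each tested member. The files hold median and not mean spot signals, so normexp (offset 50) used the median. Alternatives were 13 settings of block, scaling, filter, probe choice and animals. Arrays give no counts, so no counting interval applies.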

Additional observations from a re-analysis of the deposited data

Results flagged for a closer look

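Of 24 sets of 4 values looked at (levels in RA-free spheres, levels in RA-containing spheres and changes by animal for 8 tested members), 1 held a value far from the others by Dixon's ratio at the 95% level, and chance flags about 1 set in 20. The change of Calca was 2.05 in animal 3 and 1.09, 1.03 and 0.97 in animals 1, 2 and 4 (ratio 0.884). Without animal 3 the change was 1.03 and was still called (limma adjusted p = 0.00105).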

How the results depend on the processing

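Under 13 alternatives, 100 of 102 changes of the tested members kept their direction and their side of the threshold, and none turned. The exceptions were Npy without animal 3 (1.47, limma adjusted p = 0.0340) and under spike-in scaling (0.90, adjusted p = 0.00349, within 0.00349 to 0.850 over its alternatives), where limma gave all genes the same variance. Without the replicate block for the animal, the same number of members, 7, was called, and 8022 genes in place of 8705. Spike-in scaling called 5257 genes, 1917 of them lower in place of 3820, and moved the median change of all genes to 0.23; the cause was not tested. Of called genes 56.1% were higher, a share that ran from 46.3% to 63.5% over the scalings. Requiring signal well above background on all arrays left 3 members called lower in place of 5, since Penk and Sst were then not tested. Of 52 other named genes, 45 kept their call under every alternative that gave a value and 7 (Chgb, Ide, Itgam, Npepps, P2rx3, Pecam1 and Star) lost it under at least 1, with no reversal. Signal over background limits Penk, Sst, Calca and Tac1: the sizes for Penk and Sst are bounds, and the change of Calca was 0.47 in the normexp setting.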
